A study of Mus musculus with 9 samples.

Results

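Immediate early genes are transcribed within minutes of a stimulus, without the need for new protein, and their short-lived mRNAs are cleared soon after. Most of them encode transcription factors: FOS, FOSB, JUN, JUNB and JUND form AP-1 dimers, while EGR1 and NR4A1 bind DNA on their own. Others end the response, such as DUSP1, a phosphatase that switches MAP kinases off, and ZFP36, which binds AU-rich mRNAs and speeds their decay. In the spleen these genes are known both as readouts of antigen receptor signalling and as genes that cell dissociation can induce. The 10 genes described here, Fos, Fosb, Jun, Junb, Jund, Egr1, Dusp1, Nr4a1, Zfp36 and Ier2, were taken by symbol from the 55385 genes of the count tables, and all 10 were found. The rule reads symbols alone, but the set was proposed with earlier results of these data known.

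The data are droplet 3' RNA counts, with antibody tags and hashtag barcodes, of total mouse splenocytes sorted with DAPI. Mice carried no, 1 or 2 copies of R594C, a change in the protein of Ern1, the stress sensor IRE1 of the endoplasmic reticulum, and are called WT, R594C/+ and R594C/R594C. The WT and R594C/+ captures held 4 hashtag replicates each and the R594C/R594C capture held 2; the labels used here name no strain, no age and no agent for any group. Each genotype was a single capture, so genotype, capture and staining cannot be told apart, and the labels do not say that each hashtag was a separate mouse, so a p-value speaks of differences beyond the scatter of these hashtag replicates, which may be technical. R594C is a point change that 3' counts do not read, so no transcript level checks the genotype labels. By expressed sex-linked genes, all R594C/+ replicates were female, WT replicate 2 and R594C/R594C replicate 2 were female, and the others were male.

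A replicate held 2947 to 7254 single cells and 13041352 to 27610185 RNA UMIs (unique molecular identifiers, 1 per captured transcript). Cells were clustered without these 10 genes, other early response genes and heat shock genes, and clusters were named from marker genes, with one of its leading genes added where several share a name. A cluster of B cells that could not be named further is called B cells of cluster 9. Levels are given for 28 classes with 10 or more cells in at least 6 replicates, and genotypes were compared in the 24 classes with such numbers in at least 8. All 10 genes passed the filter on low counts in all 24 of these. The captures shared 67 to 89 cell barcodes by pair, out of 15817 to 17772. The neutrophil gene sum in follicular B-like cells was 40.3 to 55.6 CPM in WT (UMIs of a gene per 1000000 UMIs of the class and replicate), 167 to 183 in R594C/+ and 89.2 to 93.1 in R594C/R594C. The hemoglobin and other erythroid gene sum there was 76.9 to 90.6 in WT, 226 to 240 in R594C/+ replicates 1, 2 and 4 but 1927 in R594C/+ replicate 3, and 247 to 257 in R594C/R594C. Of these 10 genes several were highest in Cxcl2-led neutrophil-like cells. The part of neutrophil and erythroid RNA in the genotype comparisons below was not tested.

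Promoter windows were examined because early genes share a small set of upstream elements that the clustering and counts do not use. Of the 10 genes, 8 matched an entry in the RefSeq promoter table (GRCm38.p6), and 4 windows that end at the first base before the gene are shown, each of 200 bases and in the gene's own direction. Fos lies at chr12:85473690-85473889 (plus strand), Junb at chr8:84978749-84978948 (minus strand), Dusp1 at chr17:26508473-26508672 (minus strand) and Zfp36 at chr7:28379229-28379428 (minus strand). Capitals mark a cAMP response element (TGACGTCA) or its core (TGACG). They also mark a TATA box in Fos and, in Zfp36, a CArG box, the serum response factor element.
Fos: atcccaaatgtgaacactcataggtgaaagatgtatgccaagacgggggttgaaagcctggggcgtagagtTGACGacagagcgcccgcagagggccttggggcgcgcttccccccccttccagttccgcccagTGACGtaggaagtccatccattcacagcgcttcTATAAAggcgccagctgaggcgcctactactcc
Junb: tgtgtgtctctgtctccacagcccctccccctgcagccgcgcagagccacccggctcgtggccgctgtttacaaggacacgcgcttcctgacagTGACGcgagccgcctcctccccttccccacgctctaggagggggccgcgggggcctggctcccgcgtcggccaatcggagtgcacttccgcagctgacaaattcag
Dusp1: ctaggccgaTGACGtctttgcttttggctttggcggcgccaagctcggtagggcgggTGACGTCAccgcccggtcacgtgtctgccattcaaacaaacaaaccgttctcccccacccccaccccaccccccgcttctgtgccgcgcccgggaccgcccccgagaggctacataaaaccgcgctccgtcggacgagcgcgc
Zfp36: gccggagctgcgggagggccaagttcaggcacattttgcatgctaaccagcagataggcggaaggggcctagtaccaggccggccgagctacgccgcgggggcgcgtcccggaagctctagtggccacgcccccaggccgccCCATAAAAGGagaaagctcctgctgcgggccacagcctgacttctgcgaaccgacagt

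Both strands of 250 bases before the start were searched in the 8 matched genes and in all 32851 promoters of the table. The core TGACG stood in 5 of 8 (Fos, Fosb, Junb, Dusp1 and Nr4a1), against 17.8% of all promoters. It is also contained in the full element. For Fosb and Nr4a1 the start used lay inside the listed gene. The Fosb window began at chr7:19310046, while that gene ends at 19310118. The Nr4a1 window ended at chr15:101266845, within a gene listed from 101253902 to 101274795. The full TGACGTCA stood in Dusp1, 143 to 136 bases before the start, and in 1.55% of all promoters. A CArG box stood in Zfp36, 58 to 49 bases before the start, and in 1.47% of all. Egr1 and Ier2 matched no entry and were not searched. Elements further than 250 bases from the start were not searched for in any gene. TATAAA stood in Fos, 33 to 28 bases before the start, and in 12.4% of all. The AP-1 site TGANTCA stood in 0 of the 8 windows and in 6.75% of all promoters, which says only that these letters were not in those windows. A match is a description of letters, not a mapped site.

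The 10 genes did not share 1 ranking of spleen cells. Averaged over replicates, Fos, Fosb and Egr1 were highest in cDC2-like cells, Junb, Dusp1 and Zfp36 in Cxcl2-led neutrophil-like cells, Jun in pDC-like cells (3757 CPM over 6 mutant replicates, next to 3746 in cDC2-like cells over all 10), Jund in follicular B-like cells, Nr4a1 in Ace-led monocyte-like cells and Ier2 in Gzma-led NK-like cells. The ratio of the highest to the lowest class mean was 68.8 for Nr4a1, 39.7 for Zfp36, 35.8 for Dusp1, 28.7 for Egr1, 26.9 for Fos, 26.4 for Fosb, 15.2 for Junb, 10.6 for Jun, 9.2 for Ier2 and 4.85 for Jund. So Nr4a1, which encodes an orphan nuclear receptor, had the widest range between classes and Jund, the AP-1 member known for steady expression, the narrowest.

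**Figure D1:**
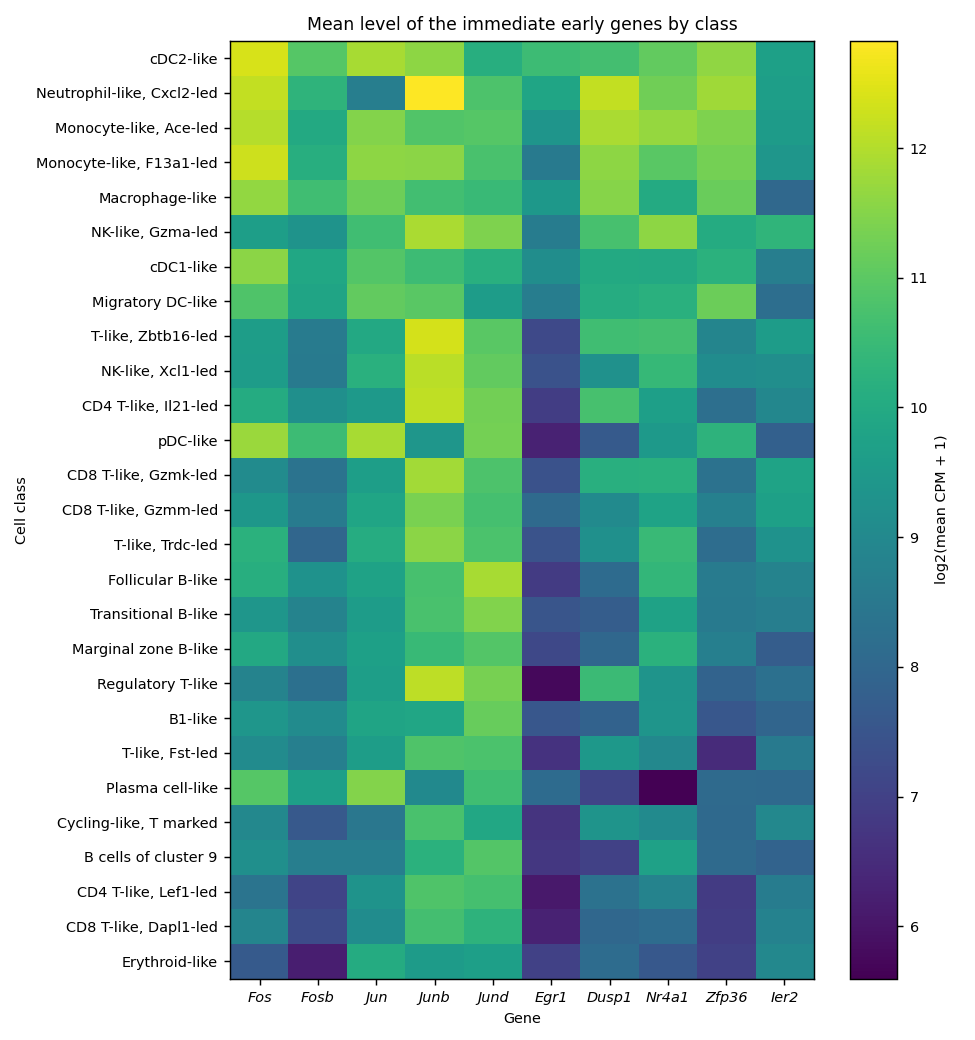
Mean level of each gene (columns) in 27 of the 28 cell classes (rows), as colour on a log2(mean CPM + 1) scale, over the replicates with at least 10 cells. The cDC2-like, neutrophil-like, monocyte-like and macrophage-like rows at the top are bright for Fos, Dusp1 and Zfp36, while the Jun cell of neutrophils and the Egr1, Dusp1 and Ier2 cells of pDC are dark, and the darkest Nr4a1 cell is that of plasma cells.

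Each class was compared with the mean of all other classes in 1 edgeR quasi-likelihood fit with the replicate as a block, Benjamini-Hochberg adjusted over all genes per class. Of 280 gene and class pairs, 224 passed an adjusted p of 0.05, 106 higher and 118 lower. Over all genes the percentage called was 46 (28.9 higher and 17.1 lower), so a call is common in these comparisons and the sizes below carry the description. Scaling between such different cells matters: 6 of the 224 calls had the opposite sign on unscaled CPM, of which 3 (Jund, Zfp36 and Ier2) were in plasma cell-like cells, where immunoglobulin transcripts made up 63.6% of UMIs. The other 3 were Jund in Gzmm-led CD8 T-like cells and Fos and Jund in Trdc-led T-like cells. Directions named below were the same on both scales, and sizes in plasma cell-like cells are given on both.

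In cDC2-like cells 9 of the 10 genes were higher than the mean of the other classes, where 36.5% of all genes were. Fos, the inducible AP-1 partner of JUN, ranged there from 2799 CPM in WT replicate 1 through a median of 5104 to 7391 in R594C/+ replicate 3. Its log2 difference from the other classes was 2.51 ± 0.09 (SE, n = 10; edgeR adjusted p = 1.5e-73). Egr1, a zinc finger factor, ranged from 844 through 1609 to 1844 CPM, with a difference of 3.11 ± 0.11. Zfp36 ranged from 1342 through 3088 to 4068 CPM, with a difference of 2.83 ± 0.08. Jund was the exception, at 1116 ± 180 CPM (SD, n = 10) and a difference of -0.57 ± 0.07. WT replicate 1 gave the lowest cDC2-like value for 9 of the 10 genes, all but Jund.

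Cxcl2-led neutrophil-like cells were high for most of the 10 genes and low for Jun. Junb ranged from 4991 CPM in WT replicate 1 through a median of 7338 to 9615 in WT replicate 3, Dusp1 from 3228 through 4502 to 5702, and Fos from 3191 through 4808 to 5498. Their log2 differences from the other classes were 1.92 ± 0.08, 2.92 ± 0.10 and 2.23 ± 0.11. Jun, a partner of FOS in the AP-1 dimer, ranged from 143 CPM in WT replicate 1 through 357 to 965 in WT replicate 4, with a difference of -1.35 ± 0.20. Among the class means these cells ranked behind only 2 classes for Fos and ahead of only 2 for Jun, so the genes for the partners of 1 dimer stood at opposite ends.

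In plasma cell-like cells Jun, Fos and Egr1 were high and Nr4a1, Dusp1 and Junb low. Jun ranged there from 1683 CPM in WT replicate 1 through a median of 2958 to 3724 in WT replicate 3, with a log2 difference of 3.09 ± 0.08. Fos ranged from 1375 through 1936 to 2407 CPM, with a difference of 2.53 ± 0.09, and Egr1 from 203 through 253 to 481, with a difference of 2.10 ± 0.13. Nr4a1 was at its lowest of all classes, 31.9 through 45.9 to 64.2 CPM, with a difference of -2.72 ± 0.12. Dusp1 (48.8 through 148 to 186 CPM) and Junb (381 through 523 to 655 CPM) were also low, with differences of -0.78 ± 0.12 and -0.39 ± 0.09. On unscaled CPM the differences were 1.52 for Jun, 0.97 for Fos and 0.60 for Egr1, and -4.28 for Nr4a1, -2.38 for Dusp1 and -1.98 for Junb, so their sizes depended on the scaling. The plasma cell Nr4a1 of all 10 replicates lay far below 939 CPM, its mean in the median class.

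pDC-like cells, seen in 6 replicates, had Jun of 2608 through 3271 to 5958 CPM. By genotype their mean Jun was 4291 CPM in R594C/+ and 2689 in R594C/R594C, against 4148 and 4209 in cDC2-like cells, and the log2 difference from the other classes was smaller than in cDC2-like cells (1.95). Fos and Fosb were high too, with log2 differences of 1.44 ± 0.14 and 1.45 ± 0.15, and Jun had 1.48 ± 0.14. Junb (-1.84 ± 0.14), Dusp1 (-2.02 ± 0.21), Egr1 (-1.87 ± 0.42) and Ier2 (-1.28 ± 0.17) were low in the same cells. The Egr1 value rested on 53 UMIs in all. No WT replicate held enough of these cells, so their levels come from R594C/+ and R594C/R594C.

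Lymphocyte classes differed in which early gene they held most. Regulatory T-like cells had high Junb (3432 through 4479 to 5097 CPM, log2 difference 1.04 ± 0.07) and Dusp1 (1168 through 1426 to 1894 CPM, 1.06 ± 0.10), beside low Fos (211 through 443 to 599 CPM, -1.41 ± 0.14) and the lowest mean Egr1 of all classes (26.7 through 51.9 to 74.8 CPM, -2.17 ± 0.25). Gzma-led NK-like cells were high in Nr4a1 (2662 through 2979 to 3728 CPM, 1.85 ± 0.07) and in Ier2, an early response nuclear protein (1099 through 1237 to 1693 CPM, 1.49 ± 0.08), and lower in Fos (-0.52 ± 0.14). Follicular B-like cells, the largest class, had the highest Jund (3233 through 3687 to 4223 CPM, 1.29 ± 0.06) and high Nr4a1 (1011 through 1393 to 1562 CPM, 0.80 ± 0.07), with low Dusp1 (162 through 286 to 338 CPM, -1.17 ± 0.11). Their Fos (0.20 ± 0.11, edgeR adjusted p = 0.12) and Junb (-0.12 ± 0.08, edgeR adjusted p = 0.20) did not pass the test. Dapl1-led CD8 T-like and erythroid-like cells were each among the lowest 5 classes for 6 of the 10 genes.

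Single steps between neighbours in these orders could not be resolved with 10 replicates. Of 270 neighbouring pairs, 0 passed an adjusted p of 0.05 in an exact two-sided sign-flip permutation test over 4 to 10 shared replicates, while 39 had an unadjusted p under 0.05. The lowest adjusted p was 0.0753, and the smallest unadjusted p that 10 replicates allow is 0.00195. It was reached by 7 pairs, and 11 would have to reach it for any to pass after adjustment, so the adjusted count says nothing of the size of the steps. For Nr4a1 a step at that floor was from Lef1-led CD4 T-like cells, at 454 CPM, to Dapl1-led CD8 T-like cells, at 285 CPM, in 10 of 10 replicates (exact permutation test, p = 0.00195).

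Per cell the same classes stood out. With every cell thinned to 1000 UMIs, a cDC2-like cell held UMIs of 7.17 of the 10 genes on average, a Cxcl2-led neutrophil-like cell 7.05, a follicular B-like cell 4.50 and an erythroid-like cell 2.82. Macrophage-like cells were mixed: 20.1% of them held a UMI of none of the 10 and 52.1% held 5 or more. Without thinning, Fos was seen in 97.6% ± 2.7 (SD, n = 10) of cDC2-like and 68.3% ± 5.2 of follicular B-like cells, and with thinning in 86.4% ± 7.6 and 47.2% ± 5.7. Erythroid-like cells, the lowest class for Fos by level, had a Fos UMI in 19% ± 13 (n = 7) after thinning, at a median depth of 24094 UMIs, against 2507 in follicular B-like cells. RNA of other cells was present in these libraries, so a UMI in some cells of a class does not show that the class expresses the gene. Cells below the thinning depth were left out, 148 of the follicular B-like and 46 of the macrophage-like cells.

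Replicates of 1 class differed more in several of these genes than in most others, in part through 1 library. The spread is given as the biological coefficient of variation, edgeR's estimate of the relative SD between replicates beyond counting error. In follicular B-like cells it was 0.271 for Fos, 0.268 for Jun, 0.249 for Egr1 and 0.194 for Dusp1, against a median of 0.0778 over 10579 genes. Junb, at 0.0876, Ier2, at 0.0929, and Jund, at 0.0973, were closer to that median. The median over 24 classes of the percentage of genes with a smaller spread was 98.5 for Jun, 97.1 for Egr1, 93.4 for Fos, 89.5 for Fosb, 80.2 for Dusp1, 77.6 for Zfp36, 76.9 for Nr4a1, 71.1 for Jund, 65.8 for Junb and 59.7 for Ier2. Jun, Fosb and Egr1 lay above their class median in 24 of 24 classes.

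Without WT replicate 1 the spread of some of them was closer to that of other genes. In follicular B-like cells it was then 0.197 for Fos, 0.164 for Jun, 0.222 for Egr1 and 0.0967 for Dusp1, against a median of 0.0779 over 10507 genes. The median percentage over classes was 96.4 for Egr1, 90.7 for Jun and 90.7 for Fosb, but 73.1 for Fos, 58.4 for Nr4a1 and 55.9 for Dusp1. Egr1 still lay above its class median in 24 of 24 classes, Jun and Fosb in 23 and Fos in 19.

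**Figure D2:**
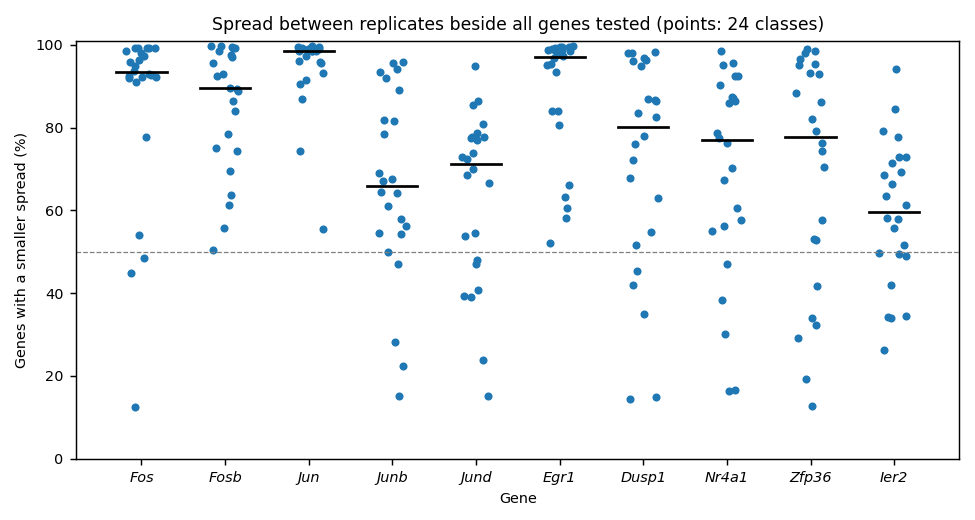
Percentage of tested genes whose spread between replicates was smaller than that of the named gene (vertical axis), 1 point per class for 24 classes, with the median as a bar and 50% dashed. Jun, Egr1 and Fos cluster near the top, with medians of 98.5, 97.1 and 93.4, while Ier2, Junb and Jund spread around the middle and above.

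WT replicate 1 was the lowest of the replicates present for Jun in 21, Fos in 20, Dusp1 in 17, Junb in 15 and Nr4a1 in 12 of the 24 classes, against 3 for Jund. Its mean deviation from the class means over the 24 classes was -1.08 for Jun, -0.86 for Fos, -0.58 for Dusp1, -0.41 for Egr1 and -0.40 for Zfp36 on the log2 scale. R594C/+ replicate 4 lay at the other end, at 0.50 for Jun and 0.40 for Fos, and was the highest for Jun in 13 of 24 classes. In follicular B-like cells WT replicate 1 was lowest for 11.1% of all 10579 genes. It was highest for 15.3%, the largest such share of any replicate. CPM are shares of a fixed total, so no replicate can be low in all genes.

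**Figure D3:**
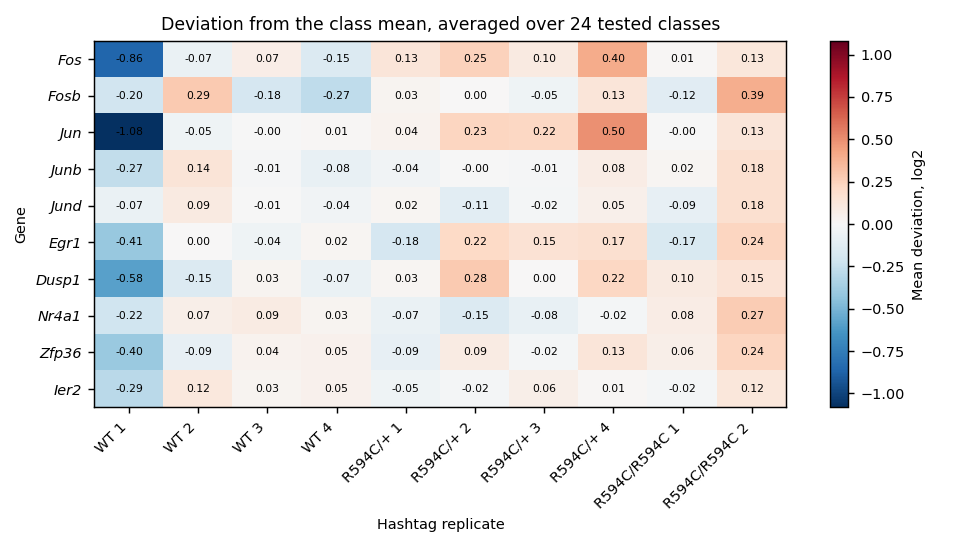
Heat map of the 10 genes (rows) in the 10 hashtag replicates (columns), with colour and printed number giving the mean log2 deviation from the class mean over 24 classes. WT replicate 1 has the lowest cells for Jun, at -1.08, and Fos, at -0.86, and R594C/+ replicate 4 the highest for both, at 0.50 and 0.40.

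Depth and mitochondrial share of that library were ordinary. WT replicate 1 had a median of 3444 UMIs per cell, within the 2752 to 3546 of all replicates, and a median mitochondrial share of 1.97%, within 1.57% to 2.12%. The summed heat shock genes, which do move with it, were at 6200 CPM in its follicular B-like cells and between 9641 and 14277 in the other replicates. The sum of the 10 early genes there was 8133 CPM against 9435 to 12483. Whether handling of this replicate differed was not tested.

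**Figure D4:**
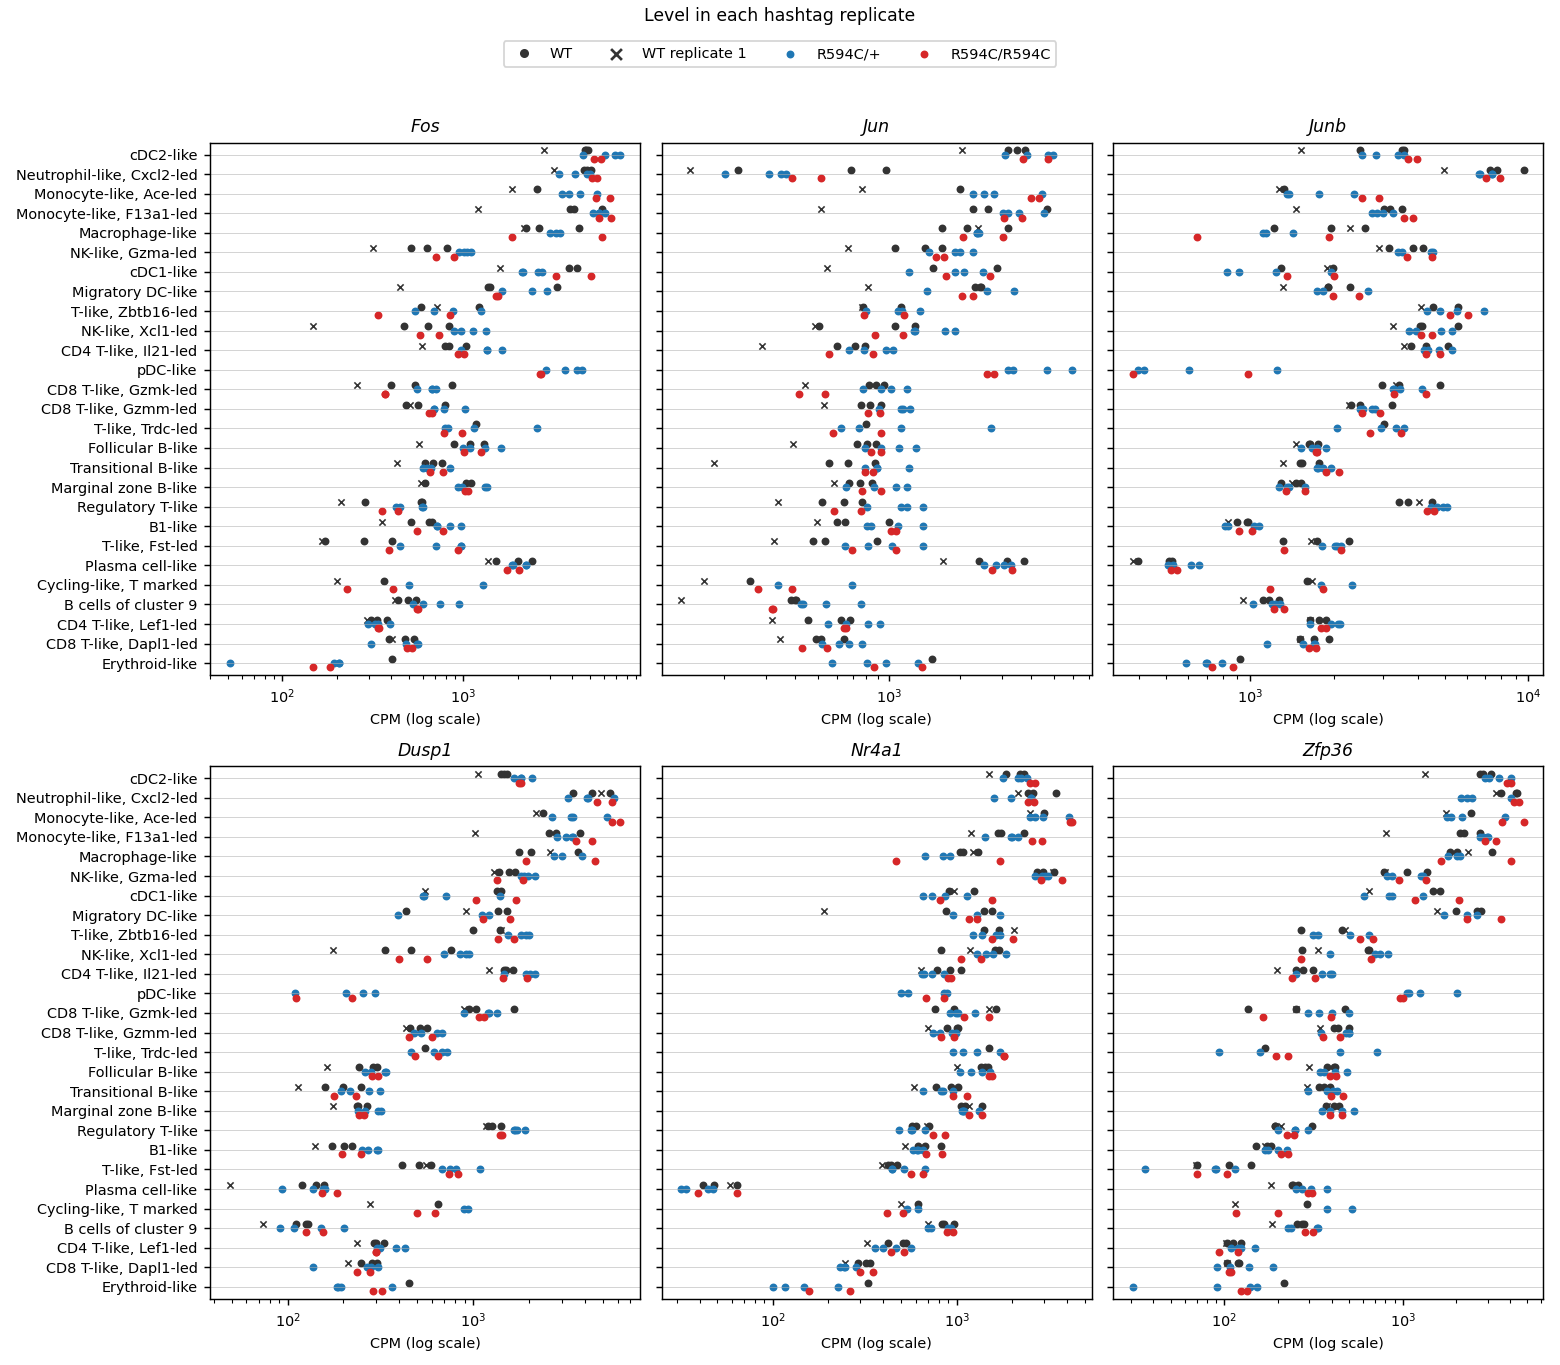
Level of Fos, Jun, Junb, Dusp1, Nr4a1 and Zfp36 (panels) in 27 of the 28 cell classes (rows), as CPM on a log axis, 1 point per replicate coloured by genotype with WT replicate 1 as crosses. The crosses lie at the left edge of most rows for Fos and Jun, among them the follicular B-like rows at 567 and 390 CPM.

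The study asked whether the R594C change alters the immune compartment, and for these genes genotypes were compared within each class by edgeR's quasi-likelihood test over replicates. In follicular B-like cells 0 of 10 genes passed in any of the 3 contrasts; the percentage of all genes called there was 0.199 for R594C/R594C minus WT, 0.293 for R594C/+ minus WT and 0.529 for R594C/R594C minus R594C/+. At an unadjusted p under 0.05 the edgeR count was also 0. DESeq2 gave 0 adjusted calls, with 1 unadjusted for R594C/R594C minus WT and 1 for R594C/+ minus WT. Fos was 567, 888, 1307 and 1086 CPM in WT, 999, 1320, 1088 and 1612 in R594C/+, and 1260 and 1010 in R594C/R594C. WT replicate 1 lay below all other values, and the other WT values overlapped both mutant groups. The log2 difference from WT was 0.41 ± 0.28 in R594C/+ (edgeR adjusted p = 0.86) and 0.24 ± 0.34 in R594C/R594C (edgeR adjusted p = 0.99).

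Jun was 390, 732, 878 and 807 CPM in the WT follicular B-like cells, 793, 1098, 927 and 1302 in R594C/+, and 927 and 835 in R594C/R594C. Again WT replicate 1 stood lowest, and the 3 other WT values overlapped both mutant groups only in part, with R594C/R594C at 835 and 927 around the highest WT value of 878. The log2 difference from WT was 0.58 ± 0.28 in R594C/+ (edgeR adjusted p = 0.76) and 0.33 ± 0.33 in R594C/R594C (edgeR adjusted p = 0.99). Without WT replicate 1 the R594C/+ differences were 0.22 for Fos and 0.38 for Jun. Egr1 (72.1 to 118 CPM in WT, 85.3 to 163 in R594C/+, 91.3 to 115 in R594C/R594C), Nr4a1 (1011 to 1477, 1042 to 1518, and 1496 and 1562) and Dusp1 (162 to 302, 261 to 338, and 285 and 307) also overlapped between groups, apart from R594C/R594C Nr4a1, which lay above all WT values but not above all R594C/+ values.

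Over the 24 classes, 3 of 240 tests passed for R594C/R594C minus WT, all higher, against 0.0992% of all genes called. For R594C/+ minus WT 3 of 240 passed, all higher and all of them Dusp1, against 0.149%. For R594C/R594C minus R594C/+ 1 was lower, against 0.137%. The 2 contrasts with WT share the WT replicates, so their directions are not independent. At an unadjusted p under 0.05 the counts were 33, 49 and 21 of 240, against 5.32%, 5.85% and 5.98% of all genes. Of the 240 differences from WT, 183 were positive in R594C/R594C and 169 in R594C/+. Their median was 0.16 and 0.16 on the log2 scale, against -0.004 and -0.003 over all genes, whose positive share was not counted. The 240 tests share the same libraries, WT replicate 1 among them, and are not independent.

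The 3 calls of R594C/R594C minus WT were all in Ace-led monocyte-like cells, a small class in which only 2 WT replicates reached 10 cells, replicate 1 with 15 and replicate 4 with 17. Of the 1400 genes tested there 0.643% were called in that contrast. Fos was 1860 and 2555 CPM in these, 3512, 4437, 3821 and 5522 in R594C/+, and 6465 and 5403 in R594C/R594C. The WT values lay below all others, while the mutant groups overlapped. The log2 difference of R594C/R594C from WT was 1.47 ± 0.22 (edgeR adjusted p = 0.00093), and that of R594C/+, 0.98 ± 0.20, did not pass (edgeR adjusted p = 0.077). Dusp1 was 2189 and 2371 CPM in WT, 3376, 3434, 2652 and 5238 in R594C/+, and 6208 and 5601 in R594C/R594C, with a difference of R594C/R594C from WT of 1.42 ± 0.24 (edgeR adjusted p = 0.0011). Junb was 1269 and 1319 CPM in WT, 1378, 1357, 1768 and 2355 in R594C/+, and 2519 and 2909 in R594C/R594C, with a difference of 1.12 ± 0.24 (edgeR adjusted p = 0.023).

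In those cells R594C/R594C minus R594C/+ did not pass for Dusp1 (0.72 ± 0.19, edgeR adjusted p = 0.078) or Junb (0.70 ± 0.20, edgeR adjusted p = 0.092). The values of the 3 groups did not overlap for either gene, but so few replicates separate easily. The share of all genes that separate so, or with WT lowest as for Fos, was not counted. The separation is therefore not read as a result. Without WT replicate 1 a single WT replicate of 17 cells was left, whose spread is assumed to be that of the other groups. The adjusted p for R594C/R594C minus WT was then 0.038 for Fos, 0.038 for Dusp1 and 0.25 for Junb, with log2 differences of 1.29, 1.39 and 1.11, so 2 of the 3 calls remained. The Junb call was also lost without WT replicate 4 (edgeR adjusted p = 0.11), without R594C/R594C replicate 1 (0.053) or 2 (0.22), and with expressed sex in the fit (0.28). With at least 30 cells per replicate the class could not be tested. With hashtags assigned by a margin rule (top hashtag at least 3 times the second and at least 10 UMIs) the differences were 0.86, 0.76 and 0.99 and 0 of the 3 calls remained. With doublets kept the Dusp1 difference was 0.91 and did not pass. The heat shock sum was 8995 CPM in WT replicate 1 and 15648 to 20810 in the other replicates of this class. The neutrophil gene sum there was 394 and 1069 CPM in WT, 223 to 2950 in R594C/+, and 1179 and 2918 in R594C/R594C. Its R594C/R594C values lay above the WT values, while the R594C/+ range took in all of them. The part of these sums in the result was not tested.

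The 3 Dusp1 calls of R594C/+ minus WT were in classes where 0.125% (B1-like), 0.222% (regulatory T-like) and 0.145% (Gzma-led NK-like) of genes were called. In B1-like cells it was 140, 173, 222 and 201 CPM in WT and 251, 303, 270 and 305 in R594C/+, with a log2 difference of 0.66 ± 0.11 (edgeR adjusted p = 0.0028). In regulatory T-like cells it was 1168, 1268, 1194 and 1416 CPM in WT and 1651, 1732, 1680 and 1894 in R594C/+, with a difference of 0.48 ± 0.09 (edgeR adjusted p = 0.0033). In Gzma-led NK-like cells it was 1302, 1380, 1681 and 1560 CPM in WT and 1966, 2155, 1804 and 1869 in R594C/+, with a difference of 0.42 ± 0.10 (edgeR adjusted p = 0.048). The R594C/R594C values lay between or within these ranges, at 247 and 197, at 1437 and 1390, and at 1860 and 1343 CPM. With expressed sex in the fit the adjusted p in regulatory T-like cells was 0.15. The NK-like call was the least stable: leaving out WT replicate 1, 2 or 4, any 1 R594C/+ replicate or R594C/R594C replicate 2 gave adjusted p of 0.062 to 0.25, and DESeq2 gave 0.69. The B1-like difference passed in the alternatives run, with adjusted p up to 0.031, apart from thinned cells, where it was 0.70 with an adjusted p of 0.075.

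Cxcl2-led neutrophil-like cells had the highest mean Dusp1 of the 28 classes, and other neutrophil-like clusters had too few cells for a level. The neutrophil gene sum, which includes Camp, Ngp and Ltf that were not among the markers found in the Cxcl2-led cluster, also differed between these groups. It was 14.1 to 25.8 CPM in WT and 107 to 120 in R594C/+ in B1-like cells, 17.8 to 118 and 178 to 192 in regulatory T-like cells, and 8.85 to 57.2 and 141 to 279 in Gzma-led NK-like cells. Its part in the Dusp1 differences was not tested. In Gzma-led NK-like cells Fos was 318, 627, 814 and 515 CPM in WT and 946, 1050, 1009 and 1102 in R594C/+. Its difference did not pass the test (0.90 ± 0.20, edgeR adjusted p = 0.20). Without WT replicate 1 it passed (0.71 ± 0.13, edgeR adjusted p = 0.0003), as did Fos in Xcl1-led NK-like cells (0.78 ± 0.17, edgeR adjusted p = 0.042) and Jun in Gzmm-led CD8 T-like cells (0.38 ± 0.09, edgeR adjusted p = 0.038).

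The 1 lower call was Jun in Gzmk-led CD8 T-like cells for R594C/R594C minus R594C/+, where 0.457% of genes were called. Jun was 777, 1016, 926 and 1188 CPM in R594C/+, 536 and 416 in R594C/R594C, and 438, 822, 952 and 883 in WT, with a log2 difference of -1.03 ± 0.24 (edgeR adjusted p = 0.044). WT replicate 1 lay among the R594C/R594C values. Leaving out any 1 R594C/+ replicate other than replicate 1, or either R594C/R594C replicate, raised the adjusted p above 0.05, to between 0.11 and 0.28. Leaving out WT replicate 2 (0.12), 3 (0.0502) or 4 (0.058) did so too, since all groups share the estimate of the spread. With expressed sex in the fit the adjusted p was 0.38, with the replicate number as a block 0.23 (a difference of -0.77), with doublets kept or the margin rule 0.15, with thinned cells 0.11 and with 30 cells per replicate 0.084.

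**Figure D5:**
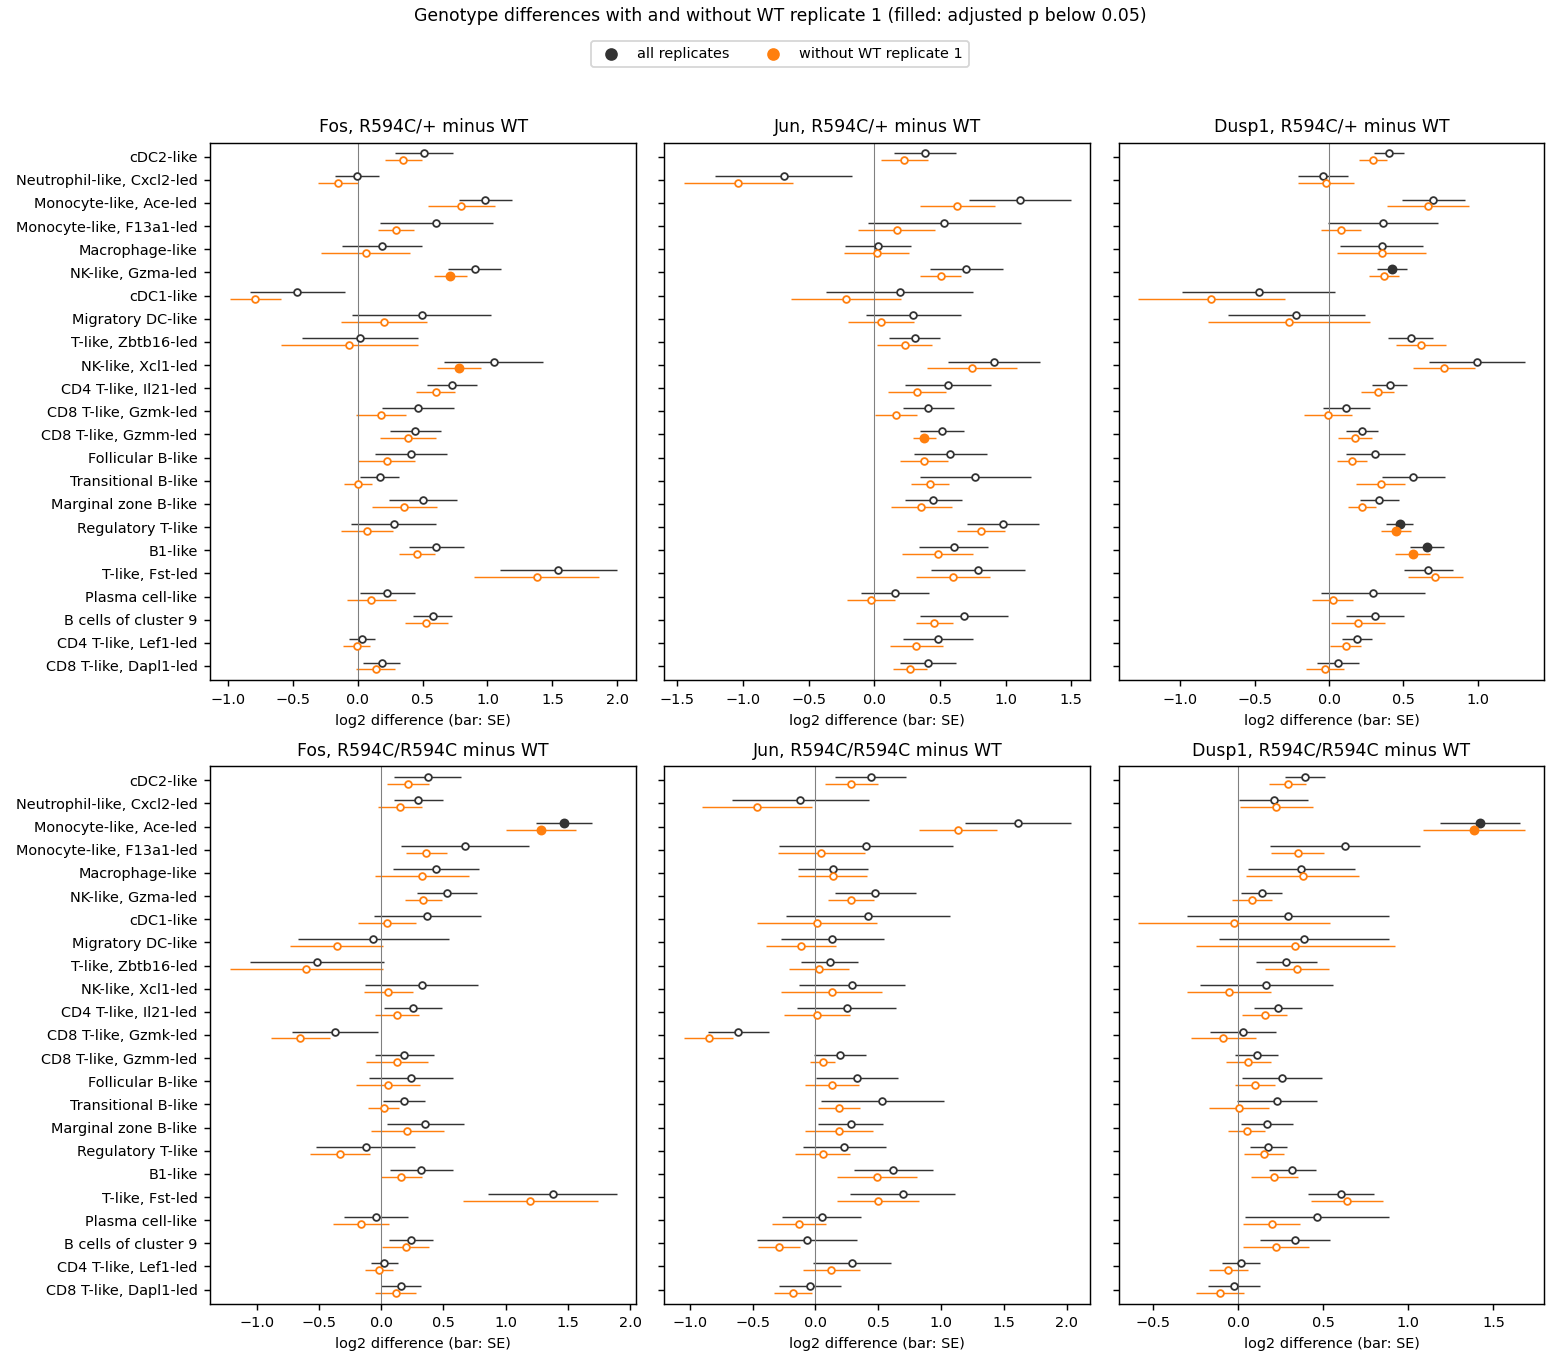
Log2 difference from WT (horizontal axis, bars are SE) of Fos, Jun and Dusp1 in 23 of the 24 classes (rows), for R594C/+ above and R594C/R594C below, with all replicates (dark) and without WT replicate 1 (orange). Filled points have an edgeR adjusted p below 0.05, and most dark points lie to the right of 0, with most orange ones further left.

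Fos, Jun and Dusp1 were followed over the classes because WT replicate 1 was most often lowest for them. Choosing genes by a low WT value favours a positive difference from WT. The differences of Fos, Jun and Dusp1 had the same sign in most classes without passing the test in most of them. For R594C/R594C minus WT they were positive in 19, 19 and 23 of 24 classes. The other genes were positive in 12 (Ier2) to 22 (Junb) classes. For R594C/+ minus WT the median log2 difference over 24 classes was 0.45 for Fos (positive in 22 of 24), 0.50 for Jun (23 of 24) and 0.36 for Dusp1 (21 of 24), against -0.003 over all genes. Without WT replicate 1 these medians were 0.21, 0.32 and 0.22, and with expressed sex in the fit they were 0.23, 0.30 and 0.29. For R594C/R594C minus WT they were 0.25 for Fos, 0.26 for Jun and 0.24 for Dusp1, without WT replicate 1 they were 0.12, 0.06 and 0.15, and with the replicate number as a block 0.41, 0.61 and 0.29. All R594C/+ replicates but only 1 of 4 WT replicates expressed female genes, so sex moves with that contrast. The classes of a replicate share its handling and are not separate replicates, so the 24 values do not add to the evidence of 10 libraries. By an interaction term in edgeR, the genotype difference in a class differed from that in follicular B-like cells in 23 of 690 tests. These were 8 for R594C/R594C minus WT, 4 for R594C/+ minus WT and 11 for R594C/R594C minus R594C/+, against 0.0406%, 0.0355% and 0.0844% of all genes. Nr4a1 had no such shift in R594C/+, with a median of -0.06 against WT and positive values in 8 of 24 classes. In R594C/R594C its median was 0.12 against WT (positive in 19 of 24) and 0.28 against R594C/+ (22 of 24), with 0 calls in either contrast.

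Few tests of relatives of these genes passed. The percentages of all genes called, 0.0992, 0.149 and 0.137 in the 3 contrasts, stand beside all the list counts that follow. Of 12 other AP-1 and ATF genes, 175 tests gave 2 calls (1.14%) for R594C/R594C minus WT and 1 (0.571%) for R594C/R594C minus R594C/+. Atf3, a stress-induced AP-1 relative, was higher in Ace-led monocyte-like cells of R594C/R594C than of WT (1.57 ± 0.26, edgeR adjusted p = 0.0011), as was Bach1, a repressor of antioxidant genes (1.75 ± 0.41, edgeR adjusted p = 0.038). Batf, needed for T cell effector programmes, was higher in Gzmk-led CD8 T-like cells of R594C/R594C than of R594C/+ (1.33 ± 0.26, edgeR adjusted p = 0.0033). For R594C/+ minus WT the edgeR count was 0 (25 at an unadjusted p under 0.05, and 0 by DESeq2). The other EGR and NR4A genes gave 1 call in 109 tests, with Nr4a3 lower in Zbtb16-led T-like cells of R594C/+ than of WT (-0.87 ± 0.20, edgeR adjusted p = 0.040). In the other contrasts they gave 0 by edgeR, with 2 unadjusted for R594C/R594C minus WT and 18 for R594C/R594C minus R594C/+, and 0 by DESeq2.

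The other MAP kinase phosphatases gave 0 edgeR calls in 115 tests of each contrast. At an unadjusted p under 0.05 they gave 12 for R594C/R594C minus WT, 19 for R594C/+ minus WT and 14 for R594C/R594C minus R594C/+, and DESeq2 gave 1, in the last of these. The 22 upstream kinases and factors, among them the serum response factor and ERK genes that drive early transcription, gave 1 call in 385 tests, with Mef2c lower in macrophage-like cells of R594C/+ than of WT (-2.09 ± 0.42, edgeR adjusted p = 0.048). In the contrasts with R594C/R594C they gave 0 by edgeR (unadjusted 20 against WT and 27 against R594C/+) and 0 by DESeq2. Heat shock genes, which encode chaperones, gave 1 call in 247 tests, Dnajb1 in regulatory T-like cells of R594C/+ (0.82 ± 0.17, edgeR adjusted p = 0.046). In the other contrasts they gave 0 by edgeR (unadjusted 11 against WT and 17 against R594C/+) and 0 by DESeq2.

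Of 590 tests of 30 other early response genes, 3 were called for R594C/R594C minus WT, 2 for R594C/+ minus WT and 4 for R594C/R594C minus R594C/+. Klf4 (1.10 ± 0.21, edgeR adjusted p = 0.0061) and Klf2 (1.11 ± 0.26, edgeR adjusted p = 0.042), both Krüppel-like factors, were higher in R594C/R594C Ace-led monocyte-like cells than in WT, and Btg2, an antiproliferative early gene, was higher there than in R594C/+ (0.80 ± 0.19, edgeR adjusted p = 0.027). Ier5l was higher in Gzmk-led CD8 T-like cells of R594C/R594C than of WT (1.53 ± 0.24, edgeR adjusted p = 0.0004) and of R594C/+ (1.14 ± 0.21, edgeR adjusted p = 0.0018). Cd69, an early activation antigen, was higher in R594C/+ than in WT in marginal zone B-like cells (0.37 ± 0.07, edgeR adjusted p = 0.0076), and Klf4 in regulatory T-like cells (0.70 ± 0.15, edgeR adjusted p = 0.029). In R594C/R594C minus R594C/+, Pim1 was higher in B1-like cells (0.61 ± 0.12, edgeR adjusted p = 0.012) and Gadd45b lower in marginal zone B-like cells (-0.63 ± 0.12, edgeR adjusted p = 0.0091). Of the ZFP36 family, Zfp36l2 was lower in marginal zone B-like cells of R594C/+ than of WT (-0.42 ± 0.10, edgeR adjusted p = 0.024).

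The genes of all compared lists with the lowest adjusted p in follicular B-like cells were mainly those of other cell types. S100a9, S100a8 and Camp, which encode proteins of neutrophil granules and cytosol, were among them in both contrasts with WT. S100a9 was 21.6 ± 3.6 CPM (SD, n = 4) in WT, 81.8 ± 5.8 (n = 4) in R594C/+ and 46.3 ± 1.1 (n = 2) in R594C/R594C. In R594C/+ the other 2 were mt-Atp6 and Ngp, and in R594C/R594C they included Fosl2 (-0.40 ± 0.13, edgeR adjusted p = 0.47), which did not pass. For R594C/R594C minus R594C/+ they were S100a8, S100a9, mt-Atp6, Lcn2 and Ngp. None of the 10 early genes was among them.

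The CD69 antibody tag gave a surface readout beside the transcripts. In follicular B-like cells it was 1172 ± 69 CPM of tag UMIs (SD, n = 4) in WT, 541 ± 49 (n = 4) in R594C/+ and 235 ± 19 (n = 2) in R594C/R594C. The scaled log2 difference from WT was -0.55 ± 0.16 in R594C/+ (edgeR adjusted p = 0.0079) and -0.79 ± 0.20 in R594C/R594C (edgeR adjusted p = 0.0022). The Cd69 transcript in the same cells differed from WT by 0.16 and 0.08 on the log2 scale and did not pass the test. Over all classes 25.2% and 45.5% of tag tests were called in these contrasts, so a called tag is near the background, and the staining of a genotype cannot be told apart from the genotype. Over the classes the R594C/R594C minus WT difference was called lower in 7 and higher in 2. It was higher in Gzmk-led CD8 T-like cells (0.98 ± 0.33, edgeR adjusted p = 0.038), where the tag level was 2424 ± 474 CPM (n = 2) against 1787 ± 499 (n = 4) in WT. In Il21-led CD4 T-like cells, the other, the sign depended on scaling: the scaled difference of R594C/R594C from WT was 0.56 ± 0.21, while the mean tag level was 1778 CPM ± 506 (n = 2) against 2211 ± 46 (n = 4) in WT.

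Genes outside the lists that followed the mean of the 10 were described by Pearson correlation, over 8204 genes with no p, since points share libraries and depth. Over the 28 class means the nearest were Ndel1 (r = 0.84), Gm45223 (0.83), Adgre5 (0.82), Apobr (0.81) and Metrnl (0.81). Over 260 class-by-replicate values with the class and genotype means taken out the nearest included Ccnl1 (0.52), Ifrd1 (0.47), Kdm6b (0.42) and Zfand5 (0.41). Different genes thus stood nearest between cell types and between replicates of 1 type. Of the 10 genes themselves, Fos (0.77) and Jun (0.76) followed the mean of the 10, which contains them, most closely between replicates and Zfp36 (0.87) between classes, where Jund (0.29) followed it least.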

How the data were processed

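The data are raw UMI counts of 55385 genes, 191 antibodies and 24 hashtags per cell barcode, deposited by the authors, made with Cell Ranger 5.0.0 per the file headers. The submitters' processing notes also name STAR, Seurat 3.1.4 and the mm10 build. The 10 members, the other gene lists and the tests were chosen with earlier results of these data known.

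Here hashtags were assigned with HTODemux (Seurat 5.3.0, quantile 0.99), and barcodes with 2 hashtags were dropped (1295 in WT, 1837 in R594C/+, 1543 in R594C/R594C). Cells with 200 genes or more and at most 10% mitochondrial UMIs were kept. Doublets within a hashtag, in the number expected from the hashtag doublets, were removed by a score against simulated doublets (3.39%, 4.16% and 9.99% of single cells). The 40987 cells were clustered on 2000 variable genes without 79 early response and heat shock genes (30 principal components, 20 neighbours, Leiden resolution 1.5), giving 37 clusters named from marker lists where at least 3 markers passed.

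Counts were summed per replicate and class (at least 10 cells) and tested with edgeR 4.0.16 (limma 3.58.1, R 4.3.3): TMM scaling, robust quasi-likelihood fit, Benjamini-Hochberg adjustment over all genes of a class, threshold 0.05. The comparison between classes used 1 dispersion trend, and its leave-one-replicate-out fits kept that trend and the largest called p of each class to stay within the limit on repeated fits. Levels are CPM (log2 with a pseudocount of 1). On simulated counts for R594C/R594C minus WT the test found 82% of genes changed 2-fold and 57% of those changed 1.5-fold in follicular B-like cells, with 17 false calls over 10579 genes. In plasma cell-like cells it found 13% and 0%, with 0 false calls over 6900 genes, and in cDC2-like cells 38% and 5%, with 2 over 6416. The changed genes were drawn at random from all genes tested. In follicular B-like cells Fos, Jun and Egr1 had a spread of 0.271, 0.268 and 0.249, against a median of 0.0778. How often changes in genes of that spread would be found was not simulated.

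All 10 members are described in every class. Other genes are named if they were the 5 of all lists with the lowest adjusted p in follicular B-like cells per contrast, or the 10 with the highest correlation with the members' mean, of which those among the first 5 are given. A class and some genes that these rules select are counted but not reported by name here. The list genes called in other classes (Atf3, Bach1, Batf, Nr4a3, Mef2c, Dnajb1, Klf2, Klf4, Btg2, Ier5l, Cd69, Pim1, Gadd45b and Zfp36l2) were chosen after their values were seen. Alternatives were DESeq2 1.42.0, no low-count filter, a replicate block, expressed sex, a margin rule for hashtags, early genes in the clustering, doublets kept, cells thinned to 2000 UMIs, 5% mitochondrial UMIs, 30 cells per replicate and leaving out each replicate. Unscaled log2 CPM between classes and the spread without WT replicate 1 were added after seeing the data.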

Additional observations from a re-analysis of the deposited data

Results flagged for a closer look

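Of 40 groups of 4 replicates examined for 1 value far from the others, 4 held one, where chance gives about 1 in 20. In 2 of these WT replicate 1 stood below the other WT replicates, with a mean log2 deviation over classes of -1.08 for Jun and -0.41 for Egr1. In the others WT replicate 2 was high for Fosb, at 0.29, and R594C/+ replicate 1 low for Egr1, at -0.18.

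The genotype difference in each class was compared with that in follicular B-like cells by an interaction term in edgeR's quasi-likelihood fit, and 23 of 690 tests on the 10 genes passed an adjusted p of 0.05. Over all genes 0.0406% of tests passed for R594C/R594C minus WT, 0.0355% for R594C/+ minus WT and 0.0844% for R594C/R594C minus R594C/+. The values are log2 differences in the named class minus those in follicular B-like cells.

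In R594C/R594C minus WT, 6 of the 8 were in Ace-led monocyte-like cells, the class with 2 WT replicates: Ier2 at 1.28, Jun at 1.26, Dusp1 at 1.18, Fos at 1.13, Junb at 1.10 and Zfp36 at 1.01. The others were Jun in Gzmk-led CD8 T-like cells at -0.92 and Ier2 in cDC2-like cells at 0.64. In R594C/+ minus WT, Xcl1-led NK-like cells differed for Dusp1 (0.79) and Fos (0.74), cDC1-like cells for Dusp1 (-0.83) and cDC2-like cells for Ier2 (0.56).

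In R594C/R594C minus R594C/+, Ace-led monocyte-like cells differed for Egr1 (1.44), Zfp36 (0.98), Dusp1 (0.89), Jun (0.86), Junb (0.80) and Fos (0.74). The cDC1-like cells differed for Dusp1 (0.92) and Zfp36 (0.91), Gzmk-led CD8 T-like cells for Jun (-0.80) and Fos (-0.74), and regulatory T-like cells for Jun (-0.50). Since follicular B-like cells entered all of these tests, they share that class's values.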

How the results depend on the processing

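The number of genotype calls on the 10 genes depended on the processing, while the class differences did so little. With 3 calls for R594C/R594C minus WT, 3 for R594C/+ minus WT and 1 for R594C/R594C minus R594C/+, DESeq2 gave 6, 7 and 1, no low-count filter 11, 23 and 9, the margin rule for hashtags 0, 3 and 0, and 30 cells per replicate 2, 8 and 4. Thinned cells gave 3, 5 and 0, the 5% mitochondrial limit 3, 4 and 1, kept doublets 2, 3 and 0, early genes in the clustering 3, 6 and 1, and expressed sex 2, 3 and 1. With the replicate number as a block they were 7, 11 and 3, and the median Jun difference of R594C/R594C from WT was 0.61. Same-numbered replicates correlated at -0.10 to 0.35 over 8 pairs (median 0.04), and others at -0.35 to 0.20 over 24 pairs (median 0.006). A replicate's correlations with the 2 R594C/R594C replicates are exact opposites, so those pairs cannot decide. The highest value joined WT replicate 2 and R594C/R594C replicate 2, both female. The numbers were not taken as a pairing.

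Leaving out 1 replicate gave 2 to 5, 2 to 7 and 0 to 4 calls. For R594C/R594C minus WT the count was 5 without WT replicate 2 or R594C/+ replicate 4. For R594C/+ minus WT it was 7 without R594C/R594C replicate 1, 6 without WT replicate 2 or R594C/+ replicate 3, and 5 without WT replicate 1 or 3, R594C/+ replicate 1 or R594C/R594C replicate 2. For R594C/R594C minus R594C/+ it was 0 without WT replicate 3 or 4 or R594C/+ replicate 3, 2 with WT replicate 1 or R594C/+ replicate 1 left out, 3 when R594C/R594C replicate 2 was and 4 when R594C/+ replicate 4 was. The median Fos difference of R594C/+ from WT, 0.45, was 0.23 with expressed sex and 0.21 without WT replicate 1. The causes were not tested.

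In 137 refits of called genotype values 0 changed sign. Of 14039 refits of the 713 uncalled values 1009 changed sign and 132 passed the test. The 224 class calls were 242 with no filter, 214 with thinned cells (270 tests), 166 with 30 cells (210 tests) and 220 to 224 without 1 replicate, and 0 to 14 were lost. With early genes in the clustering 2 changed sign, Egr1 in B cells of cluster 9 (-1.01 to 0.09) and in erythroid-like cells (-0.81 to 0.30), and 0 did in the other settings. DESeq2 and a fit without the replicate block were not run between classes. Small classes limit the test: 15 and 17 WT cells stand behind the Ace-led monocyte values.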

Other observations

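Lists of genes that mark other cell types were compared in the same fits. Neutrophil genes were higher in R594C/+ than in WT in 33 of 54 tests and in R594C/R594C than in WT in 5 of 54, and lower in R594C/R594C than in R594C/+ in 14 of 54. Hemoglobin and other erythroid genes were higher than in WT in 23 of 63 tests for R594C/+ and in 20 of 63 for R594C/R594C, with 0 edgeR calls between the mutant groups (5 at an unadjusted p under 0.05, and 0 by DESeq2). T cell genes gave 0 edgeR calls in 66 tests and monocyte and macrophage genes 0 in 58, in each contrast, as did DESeq2. At an unadjusted p under 0.05 the T cell counts were 4 for R594C/R594C minus WT, 8 for R594C/+ minus WT and 2 for R594C/R594C minus R594C/+, and the monocyte and macrophage counts 4, 11 and 5. B cell genes gave 2 lower calls of 76 for R594C/+ minus WT, 1 lower for R594C/R594C minus WT and 1 lower for R594C/R594C minus R594C/+. Mitochondrially encoded genes gave 5 lower calls of 219 for R594C/+ minus WT, 1 higher for R594C/R594C minus WT and 2 higher for R594C/R594C minus R594C/+.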
